A study of Mus musculus with 8 samples.

Results

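The nuclear-encoded genes of oxidative phosphorylation were taken from the RNA-seq table as every gene symbol that starts with Nduf, Uqcr, Cox4i, Cox5, Cox6, Cox7, Cox8 or Atp5, together with Sdha, Sdhb, Sdhc and Sdhd. Pseudogene symbols were dropped. The rule gave 92 of 35976 genes. It uses names and no expression value, but it was chosen with earlier results of these data known. Of the 92 genes, 82 encode subunits of complexes I to V or their tissue isoforms. The other 10 are carried along by their names and are not subunits: 7 Ndufaf assembly factors of complex I, the supercomplex factor Cox7a2l, Atp5s and Atp5sl. Ndufa4 and its paralog Ndufa4l2 were placed with complex IV.

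Male mice were kept on a high fat diet, and CD45-, CD31-, TER119- and PDGFRa+ preadipocytes were taken by sorting from the stromal vascular cells of their inguinal white fat (iWAT). Gene expression was measured by poly(A)-selected RNA-seq after 6 weeks of diet in 3 libraries labelled WT, of genotype Tet3 f/f, and 3 libraries labelled KO, of genotype Pdgfra-Tet3 KO. The floxed Tet3 allele was therefore also carried by the WT group, and the labels used here give neither the Cre line nor the age of the mice. They do not say that the 3 libraries of a group came from separate animals, so the p-values reflect only how these libraries scatter, and that scatter may be technical. The 8 samples of the series also include 1 bisulfite-sequenced DNA pool per genotype, which was not used here.

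Oxidative phosphorylation couples the oxidation of NADH and succinate to ATP synthesis in the inner mitochondrial membrane. Complexes I and II pass electrons to ubiquinone, complex III passes them on to cytochrome c and complex IV to oxygen, and complexes I, III and IV pump the protons that drive complex V, the ATP synthase. Complex II is encoded wholly in the nucleus, while the others combine nuclear-encoded subunits with a few encoded by mitochondrial DNA. In adipose tissue the capacity of this chain is known to rise as preadipocytes differentiate and is high in brown fat.

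The libraries held between 1831218 and 2374978 counts, of which 3 correspond to 1.27 to 1.65 CPM (counts scaled to library size). Tet3, which encodes a DNA demethylase and is the targeted gene, had 93, 127 and 104 counts in WT libraries and 76, 87 and 79 in KO. The groups did not overlap in counts, but they did in CPM, and the log2 fold change of -0.24 ± 0.24 (SE) had an adjusted p of 0.71. A count per gene adds deleted and retained exons, so it does not test the deletion. All 8 preadipocyte markers were detected, and Pdgfra itself fell from 666, 660 and 619 CPM in WT to 407, 482 and 462 CPM in KO (log2 fold change -0.52 ± 0.12 (SE), adjusted p = 0.00598). The 8 markers did not move together: 2 were called lower in KO (Pdgfra and Lum) and 3 higher (Col1a1, Ly6a and Cd34). Their median log2 fold change was 0.04. Summed blood and endothelial markers, which the sort excludes, reached 108 CPM in KO library 1 against 0.847 to 24.8 CPM elsewhere, with Ptprc at 0. Macrophage markers summed to 2.12 to 9.35 CPM.

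Transcripts of the respiratory chain differed little between the genotypes. Of the 80 genes with enough counts to be tested, 1 fell in KO and none rose at an adjusted p of 0.05: Uqcrc2, a core protein of complex III. That is 1.25% of the tested members, against 1.77% of all 9943 tested genes called lower, 1.82% called higher and 3.59% called in either direction. At an unadjusted p under 0.05, 10 members (12.5%) were lower, against 7.83% of all genes, and 4 (5%) were higher, against 7.62%. DESeq2 called 3 of the members (3.75%) and limma-voom 2 (2.5%), against 4.05% and 3.37% of all tested genes.

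The median log2 fold change of the 80 members was -0.016, against -0.0024 over all tested genes, and the members ranged from -2.19 to 0.59. Of the 80, 44 (55%) were below 0, against 50.3% of all tested genes. For 63 of the 80 (78.8%) the 95% interval lay wholly within a 2-fold change in either direction, against 53.6% of all tested genes; the members' median SE was 0.23 and that of all genes 0.30. For the other 17 a change of more than 2-fold lay inside the interval. Without overlap between the groups, 7 members lay lower in all KO libraries (8.75%, against 10.3% of all tested genes) and 8 lay higher (10%, against 10.1%). Both shares were close to the background.

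**Figure D1:**
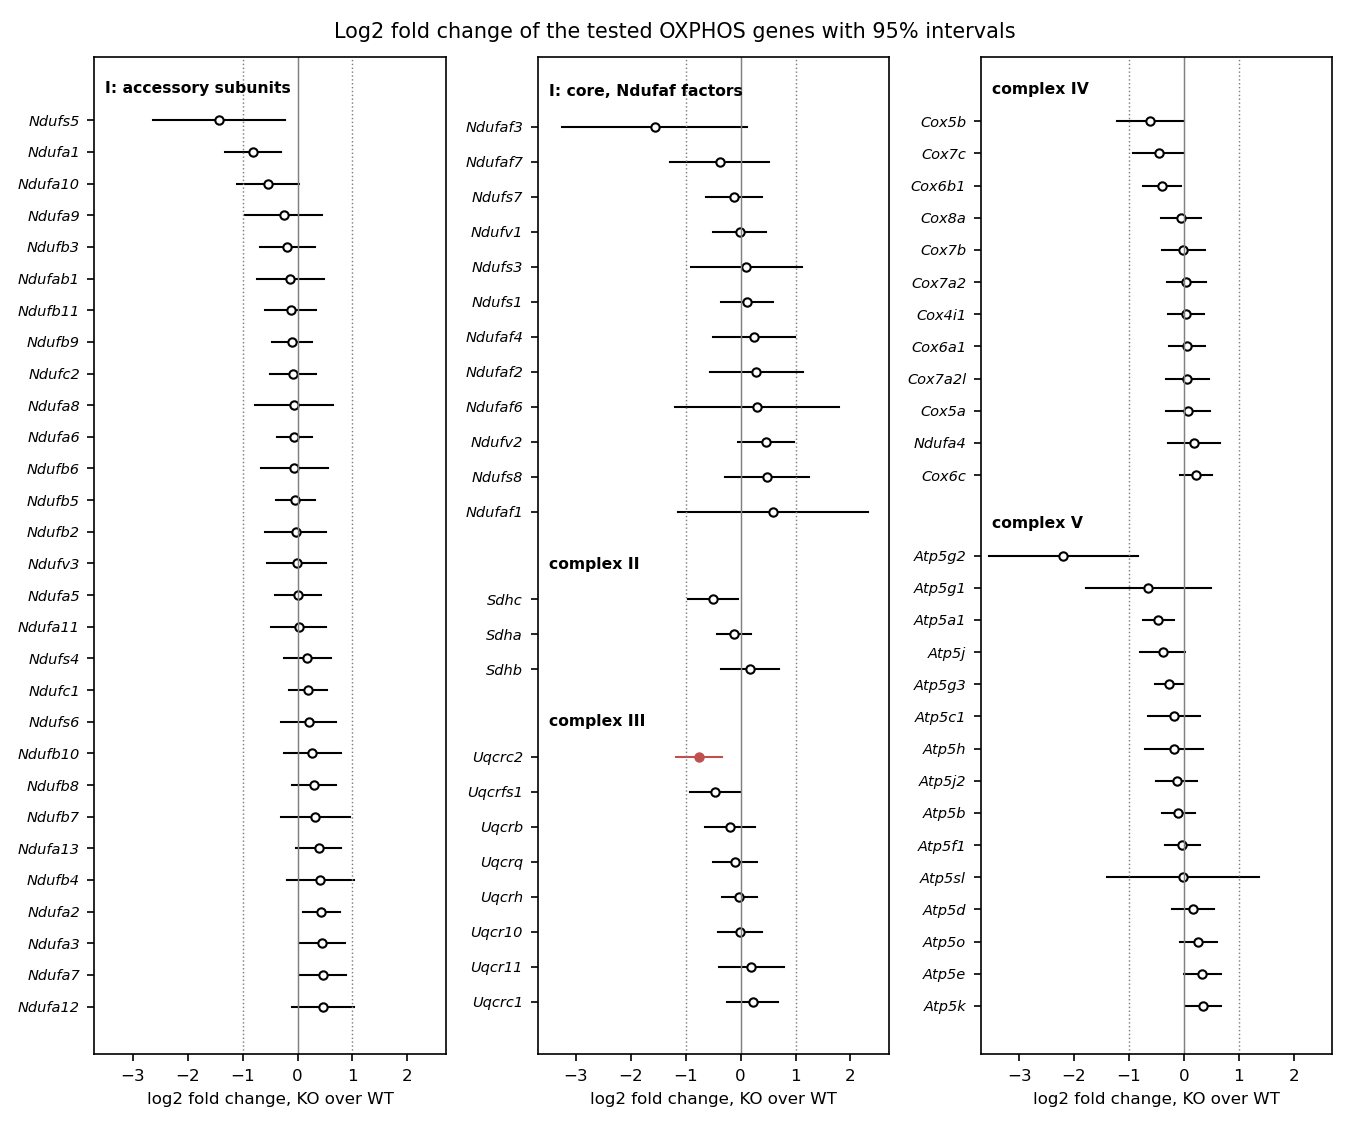
Log2 fold change of KO over WT (horizontal axis) for 79 of the 80 tested genes, grouped by complex, with its 95% interval; the dotted lines mark 2-fold changes. The filled point is Uqcrc2, which passed the test, and the widest intervals belong to genes of few counts such as Atp5g2 (-2.19) and Ndufaf1 (0.59).

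Summed over the subunits of each complex, the levels of the 2 genotypes lay close together. Complex I summed to 2175, 2254 and 2066 CPM in the WT libraries and 2468, 2189 and 2227 CPM in KO. The means were 2165 ± 94.5 and 2295 ± 152 CPM (SD, n = 3), a ratio of 1.06. Complex IV gave 1256 ± 83.9 and 1249 ± 171 CPM, a ratio of 0.994. In both complexes the highest library was KO library 1, and the groups overlapped.

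Complex II summed to 339 ± 47.5 CPM in WT libraries and 303 ± 16.8 CPM in KO, a ratio of 0.894, with overlap. Complex III summed to 643, 648 and 684 CPM in WT libraries and 653, 603 and 527 CPM in KO, a ratio of 0.903. Complex V summed to 2117, 2245 and 2043 CPM in WT libraries and 1978, 2052 and 1850 CPM in KO, a ratio of 0.918. Their groups overlapped as well: KO library 1 reached into the WT range for complex III, and KO library 2 did so for complex V. All subunits together made up 6554 ± 217 CPM in WT libraries and 6401 ± 388 CPM in KO (SD, n = 3). No test was made of these sums.

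**Figure D2:**
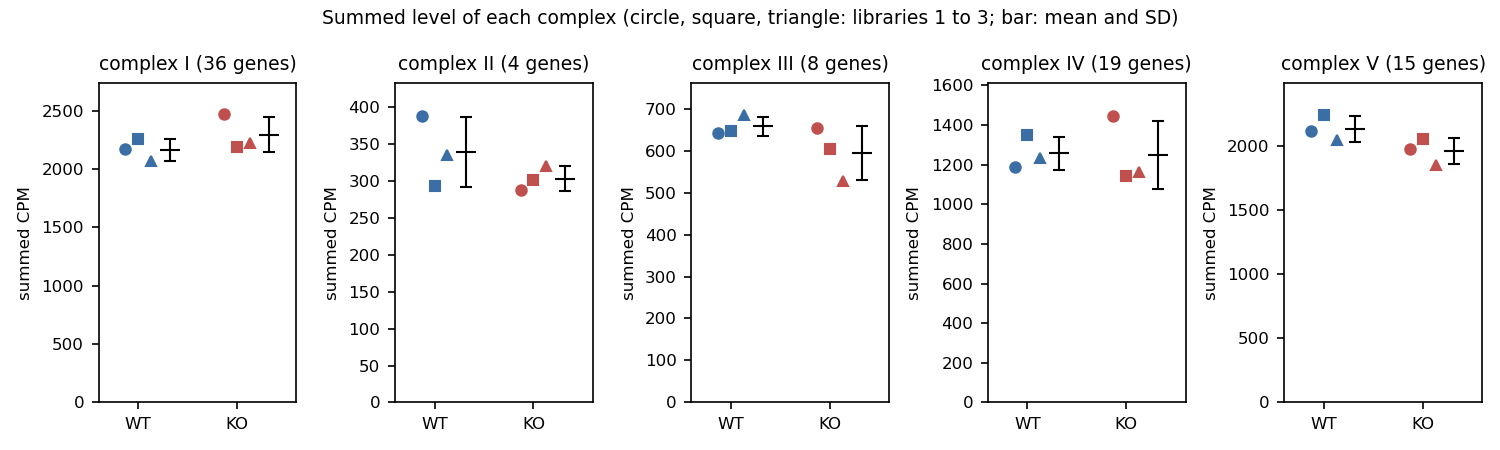
Summed normalised CPM (vertical axis) of the subunits of each complex in every library; points are libraries, and bars show the group mean and SD. The means differ by ratios between 0.894 for complex II and 1.06 for complex I.

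KO library 1 stood out among the 6 libraries. It had the highest value for 26 of the 80 tested members (32.5%), against 18.8% of all tested genes. KO library 3 had the highest value for 3 members (3.75%), against 15.6% of all genes. KO library 1 was also the library with 83.7 CPM of the erythroid gene Hbb-bs, and without it the members' median log2 fold change was -0.077. The part of either in the members' values was not tested.

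In complex I, all 36 subunits were tested and none passed. Their median log2 fold change was -0.01, with a median of 0.11 over the 7 core subunits, which form the catalytic arm, and -0.01 over the 29 accessory subunits. The 95% interval lay within 2-fold for 29 of the 36. KO lay lower without overlap for 2 of the 36 subunits, against 10.3% of all tested genes, and higher for 5, against 10.1%. All 7 were accessory subunits, the class that holds 29 of the 36.

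Ndufa1, a small accessory subunit, had the smallest p of the complex. It stood at 58.5, 94.0 and 50.6 CPM in WT libraries and 36.9, 38.9 and 40.2 CPM in KO. The KO libraries lay close together and below every WT library, while WT library 2 was well above the other two. Its log2 fold change of -0.81 ± 0.25 (SE) had a 95% interval from -1.32 to -0.30, and edgeR's quasi-likelihood test with Benjamini-Hochberg adjustment gave an adjusted p of 0.0639. Of 13 alternatives, 4 called it, and its adjusted p ranged from 0.0410 to 0.459.

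Ndufa2, another accessory subunit, had 155, 109 and 156 CPM in WT libraries and 228, 168 and 169 CPM in KO. Every KO library was above every WT library, by the most in KO library 1. This was a log2 fold change of 0.43 ± 0.17 (SE), and the adjusted p was 0.174. Ndufs5, an accessory subunit with few counts, had 15, 41 and 35 counts in WT libraries and 6, 6 and 17 in KO. WT library 1 fell inside the KO range, and the log2 fold change of -1.43 ± 0.59 had an adjusted p of 0.213.

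The other accessory subunits that lay higher in KO without overlap were Ndufa3, Ndufa7, Ndufa12 and Ndufb4, with log2 fold changes of 0.41 to 0.47. Ndufa10 lay lower, at 40.6 ± 8.0 CPM in WT libraries and 28.0 ± 1.06 CPM in KO (SD, n = 3), with a log2 fold change of -0.53 and an adjusted p of 0.362. Ndufa6 and Ndufa2 were the subunits of complex I with the most CPM as a mean over all 6 libraries, not corrected for length. Ndufa6 had 163 ± 26.2 and 157 ± 10.6 CPM, and its interval of -0.38 to 0.26 kept it within a 2-fold change.

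The 7 core subunits had log2 fold changes of -0.12 to 0.48. Ndufv1, which binds NADH, had -0.01 ± 0.24 (SE). Ndufs8, an iron-sulfur subunit, had the largest at 0.48 ± 0.37, with 45, 75 and 15 counts in WT libraries and 58, 53 and 52 in KO. Its WT libraries spread on both sides of the KO values. The 6 tested Ndufaf assembly factors had a median of 0.26, from few counts. Ndufaf3, with 20, 27 and 6 counts in WT libraries and 4, 0 and 11 in KO, had -1.57 ± 0.82, an adjusted p of 0.368 and overlapping groups.

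Complex II, succinate dehydrogenase, is also an enzyme of the citric acid cycle. Of its 4 subunits, 3 were tested and none passed. Sdha, the flavoprotein, had 234, 163 and 203 CPM in WT libraries and 187, 187 and 177 CPM in KO. All 3 KO values lay within the WT range, and the log2 fold change was -0.12 ± 0.15 (SE), with an adjusted p of 0.781. Sdhb, the iron-sulfur subunit, had 0.17 ± 0.26 and an adjusted p of 0.834.

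Sdhc, a membrane anchor, had 99.9, 96.9 and 59.1 CPM in WT libraries and 48.8, 59.8 and 73.2 CPM in KO. WT library 3 fell inside the KO range. Its log2 fold change was -0.50 ± 0.22, with an interval from -0.95 to -0.04 and an adjusted p of 0.266. Sdhd, the other anchor, had 5, 6 and 8 counts in WT libraries and 5, 1 and 4 in KO, which the filter on low counts left out. Without the filter its log2 fold change was -0.73 ± 1.25 (SE), with an adjusted p of 0.836. The abundant glycolytic transcript Gapdh had no more than 1 count in any library, and low counts in this table are therefore no proof of a low level.

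Complex III held the only member that passed. Uqcrc2, a core protein that faces the matrix and is needed for assembly of the complex, had 189, 189 and 170 counts in WT libraries and 91, 105 and 90 in KO. These were 89.9, 80.0 and 84.4 CPM in WT libraries and 46.7, 53.7 and 49.5 CPM in KO. The highest KO library was well below the lowest WT library. The mean of Uqcrc2 fell from 84.8 ± 4.94 CPM to 50.0 ± 3.51 CPM (SD, n = 3). On the log2 scale KO over WT was -0.76 ± 0.21 (SE), with a 95% interval from -1.18 to -0.34, and edgeR's quasi-likelihood test with Benjamini-Hochberg adjustment gave an adjusted p of 0.0316.

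In all 7 other fits on the 6 libraries Uqcrc2 passed, with adjusted p between 0.0159 and 0.0372. With 1 library left out, it passed only without KO library 2 (adjusted p = 0.0462). It missed the threshold without WT library 1 (0.114), WT library 2 (0.0530), WT library 3 (0.0874), KO library 1 (0.0964) or KO library 3 (0.137), always with the same direction.

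Its partner core protein Uqcrc1 had 48.5, 52.1 and 50.1 CPM in WT libraries and 66.7, 56.2 and 52.3 CPM in KO. The KO values were all above the WT values, KO library 3 only just. Uqcrc1 had a log2 fold change of 0.22 ± 0.23 (SE), with an interval from -0.24 to 0.68 and an adjusted p of 0.719. The difference between the 2 core proteins was not tested.

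Uqcrfs1, the Rieske iron-sulfur protein that carries electrons within the complex, had 61.3, 97.8 and 85.9 CPM in WT libraries and 57.0, 75.2 and 44.6 CPM in KO. The groups overlapped, and the log2 fold change of -0.47 ± 0.23 had an adjusted p of 0.309. Uqcrh, the hinge subunit, and Uqcrb, a small subunit, had the most CPM of the complex as a mean over all 6 libraries, with log2 fold changes of -0.02 ± 0.16 and -0.20 ± 0.22. The median of the 8 subunits was -0.06, and 7 of them had intervals within a 2-fold change. Cyc1, cytochrome c1, is a subunit outside the naming rule and was looked at after its values were seen: it had 33.6 ± 6.51 CPM in WT libraries and 22.0 ± 7.29 CPM in KO, with overlap and an adjusted p of 0.361.

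**Figure D3:**
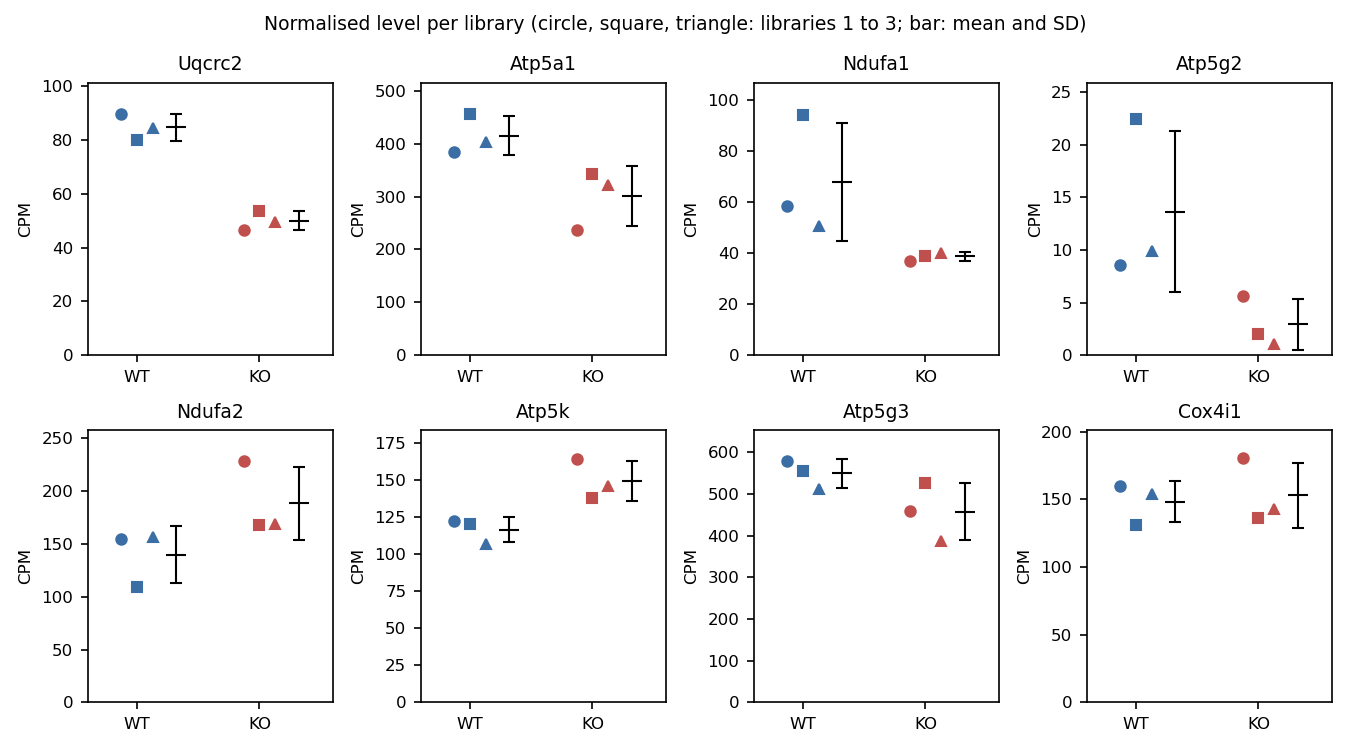
Normalised CPM per library (vertical axis, from 0) of members the text turns on, with WT and KO libraries as points and the group mean and SD as bars. Uqcrc2 shows the widest gap relative to its spread, with WT at 80.0 to 89.9 CPM and KO at 46.7 to 53.7 CPM.

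Of the 19 subunits and isoforms of complex IV, cytochrome c oxidase, 11 were tested and none passed. Cox6b1, which faces the intermembrane space, had 113, 149 and 123 CPM in WT libraries and 105, 96.1 and 91.3 CPM in KO. The groups did not overlap, though KO library 1 came near WT library 1. Cox6b1 had a log2 fold change of -0.40 ± 0.17 (SE) and an adjusted p of 0.242. Cox5b had -0.61 ± 0.30 with an adjusted p of 0.319, and Cox7c had -0.46 ± 0.23 with an adjusted p of 0.330, both with overlapping groups.

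The remaining subunits lay nearer to 0. Cox4i1, a regulatory subunit, had 160, 131 and 154 CPM in WT libraries and 180, 136 and 142 CPM in KO, which overlapped. Its log2 fold change was 0.05 ± 0.16, with an interval from -0.28 to 0.37. Cox6c had the most CPM, 278 ± 33.9 in WT libraries and 324 ± 68.8 in KO (SD, n = 3), with a log2 fold change of 0.22 ± 0.14 and an adjusted p of 0.518. Cox6a1, Cox7a2 and Cox8a had log2 fold changes of 0.06, 0.04 and -0.05. Ndufa4 lay higher in KO without overlap, at 46.6 ± 4.09 and 52.9 ± 1.99 CPM, a log2 fold change of 0.18 ± 0.23. Cox7a2l, which joins complexes III and IV, had 0.07 ± 0.19.

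The tissue isoforms of complex IV subunits were at or near the detection limit. Cox7b2 and Cox8c had 0 counts in all 6 libraries, where 3 counts set a limit of 1.27 to 1.65 CPM. Cox4i2 had 2 counts in WT library 1 and 2 in KO library 1. The heart and muscle isoform Cox6a2 had 3, 0 and 2 counts in WT libraries and 3, 3 and 5 in KO. Cox7a1, also of heart and muscle, had 4, 1 and 1 in WT libraries and 2, 5 and 3 in KO. Cox6b2, a testis isoform, had 4, 0 and 0 in WT libraries and 2, 4 and 8 in KO. Fitted without the filter on low counts, the log2 fold changes were 0.12 ± 2.24 (SE) for Cox4i2, 1.23 ± 1.73 for Cox6a2, 1.89 ± 1.72 for Cox6b2 and 0.86 ± 1.72 for Cox7a1, with adjusted p from 0.706 to 0.988. Beside the muscle isoforms, 12 skeletal muscle markers summed to 109, 34.3 and 122 CPM in WT libraries and 110, 187 and 202 CPM in KO, and their part in these counts was not tested.

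Cox8b, an isoform of heart, muscle and brown fat, had 7, 15 and 9 counts in WT libraries and 0, 5 and 6 in KO. All KO libraries were below all WT libraries. Fitted without the filter on low counts, its log2 fold change was -1.25 ± 1.03 (SE), with an adjusted p of 0.682. Of 7 brown and beige markers, Ucp1, Cidea, Elovl3 and Cpt1b were at 0 in every library. Dio2 had 1, 7 and 2 counts in WT libraries and 0 in every KO library, the same direction as Cox8b. Ppargc1a and Pdk4 had few counts, and their groups overlapped. The whole list summed to at most 7.61 CPM per library, and none of it was tested. Mature adipocyte markers summed to 107 to 169 CPM in WT libraries and 36.4 to 124 CPM in KO, nearly all of it Fabp4. Plin1, Cidec, Lep and Retn were at 0 in every library, and Adipoq and Cfd had at most 2 counts. The part of the mature adipocyte markers in the Cox8b counts was not tested.

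Ndufa4l2, the hypoxia-inducible paralog of Ndufa4, had 3, 13 and 24 counts in WT libraries and 1, 2 and 1 in KO. The groups did not overlap, but WT library 1 was near the KO values. Without the filter its log2 fold change was -3.05 ± 1.13 (SE), with an adjusted p of 0.142, and none of the 5 alternatives that kept it called it. The 7 pericyte and smooth muscle markers summed to 330 to 367 CPM in WT libraries and 174 to 188 CPM in KO. Both tested markers of that list, Pdgfrb and Notch3, fell, and most of the sum was Pdgfrb, with means of 292 CPM in WT libraries and 155 CPM in KO. The 5 untested markers had few counts. Of these, Rgs5 and Myh11 had higher means in KO, and Cspg4, Acta2 and Mcam had lower ones. The part of the 7 markers in the Ndufa4l2 counts was not tested. In bulk libraries, fewer cells of a type and less RNA per cell cannot be told apart.

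In complex V, 14 of 15 subunits were tested, none passed, and the median log2 fold change was -0.15. Atp5a1, the alpha subunit of the catalytic F1 head, had 385, 457 and 404 CPM in WT libraries and 237, 343 and 323 CPM in KO. Every KO library was below every WT library, and KO library 1 was lowest. Its log2 fold change of -0.47 ± 0.14 (SE) had a 95% interval from -0.75 to -0.19, and edgeR's quasi-likelihood test with Benjamini-Hochberg adjustment gave an adjusted p of 0.0518. Of 13 alternatives, 7 called it, among them DESeq2 (0.0480) and limma-voom (0.0352), and its adjusted p reached 0.229 without KO library 1.

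Atp5b, the catalytic beta subunit that pairs with alpha in F1, had 215, 220 and 190 CPM in WT libraries and 172, 237 and 174 CPM in KO. KO library 2 was the highest of all 6. Atp5b had a log2 fold change of -0.10 ± 0.15, with an interval from -0.40 to 0.21. The difference between alpha and beta was not tested. Of the rest of F1, the gamma subunit Atp5c1 had -0.18 and the delta and epsilon subunits Atp5d and Atp5e had 0.17 and 0.34.

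The 3 genes for subunit c, Atp5g1, Atp5g2 and Atp5g3, encode the same mature protein of the proton-conducting ring under separate promoters. Their promoters are shown because they set these genes for one protein apart, along with that of Atp5k, a membrane subunit that lay higher in KO. The 120 bases before each annotated start are from RefSeq (GRCm38.p6, minus strand), 5′ to 3′, at chr11:96075632-96075751 for Atp5g1, chr15:102671048-102671167 for Atp5g2, chr2:73911327-73911446 for Atp5g3 and chr5:108434400-108434519 for Atp5k. Capitals mark the NRF1 core motif CGCATGCG.
Atp5g1: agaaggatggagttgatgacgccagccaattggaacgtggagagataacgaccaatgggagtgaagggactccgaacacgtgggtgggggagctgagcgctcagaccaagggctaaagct
Atp5g2: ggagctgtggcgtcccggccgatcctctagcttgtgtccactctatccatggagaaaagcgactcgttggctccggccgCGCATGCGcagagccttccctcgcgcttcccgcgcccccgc
Atp5g3: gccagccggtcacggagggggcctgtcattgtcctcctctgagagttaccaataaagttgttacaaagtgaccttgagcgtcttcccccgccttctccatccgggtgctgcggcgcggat
Atp5k: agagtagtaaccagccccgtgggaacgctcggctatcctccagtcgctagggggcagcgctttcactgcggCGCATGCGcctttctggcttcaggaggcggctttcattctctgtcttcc
Atp5g2 and Atp5k held the motif in this window, and Atp5g1 and Atp5g3 did not.

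Atp5g2 had 18, 53 and 20 counts in WT libraries and 11, 4 and 2 in KO. All KO libraries were below all WT libraries, and WT library 2 stood far above the rest. The log2 fold change was -2.19 ± 0.67 (SE), with an interval from -3.55 to -0.83 and an adjusted p of 0.0627. Of 12 alternatives that kept the gene, 3 called it, with adjusted p from 0.0263 to 0.428.

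Atp5g3 had 580, 555 and 512 CPM in WT libraries and 459, 525 and 388 CPM in KO. KO library 2 lay inside the WT range. Its log2 fold change was -0.26 ± 0.12, with an adjusted p of 0.299. Atp5g1 had 16, 35 and 25 counts in WT libraries and 16, 7 and 19 in KO, and -0.65 ± 0.56 with an adjusted p of 0.648.

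Among the stalk and membrane subunits, Atp5k had 122, 121 and 107 CPM in WT libraries and 164, 138 and 146 CPM in KO. The groups did not overlap, and the log2 fold change was 0.36 ± 0.16 (SE), with an adjusted p of 0.265. Atp5j, a subunit of the peripheral stalk, lay lower in KO without overlap, at 81.0 ± 11.2 and 62.1 ± 5.91 CPM (SD, n = 3), and had -0.38 ± 0.20. The other stalk subunits Atp5f1, Atp5h and Atp5o had -0.02, -0.17 and 0.27, and membrane subunit Atp5j2 had -0.13. Atp5l, membrane subunit g, had 0, 1 and 9 counts in WT libraries and 2, 1 and 3 in KO and was not tested. The sources used here do not say how reads matching several places were counted, which leaves the counts of genes with near-identical copies uncertain; its part in the low counts of Atp5l and Sdhd was not tested.

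The promoters of 76 of the 92 genes were matched by symbol or RefSeq synonym, with 250 bases searched before each start on both strands. The NRF1 core motif CGCATGCG was in 8 of them (10.5%), namely Atp5g2, Atp5j, Atp5k, Atp5l, Cox6a1, Ndufa8, Ndufa11 and Ndufaf4. It was in 1.75% of all 27025 promoters and 3.85% of those of tested genes. The 7 of these members that were tested had a median log2 fold change of 0.02, and 3 were below 0. The GABPA motif CCGGAAG was in 13 (17.1%), against 7.83% of all promoters and 16.2% of those of tested genes. The YY1 motif AAGATGGC was in 2 (2.63%), against 1.83% and 2.51%. No searched motif contains another, and these matches describe letters and not binding.

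The 13 subunits encoded by mitochondrial DNA were found in the table, 10 could be tested, and none passed, against 3.59% of all tested genes. CYTB, the cytochrome b of complex III, had 1736, 2103 and 1880 CPM in WT libraries and 1427, 1658 and 1529 CPM in KO. The groups did not overlap, and the log2 fold change was -0.31 ± 0.10 (SE), with an adjusted p of 0.0948. ND2, of complex I, had 2762, 2644 and 3526 CPM in WT libraries and 3254, 3690 and 4147 CPM in KO. WT library 3 fell inside the KO range, and the log2 fold change was 0.31 ± 0.11, with an adjusted p of 0.107. Of 13 alternatives, 3 called CYTB lower, and 5 called ND2 higher: no filter (adjusted p = 0.0350), limma-voom (0.0384), the replicate block (0.00971), and the fits without WT library 3 (0.0399) or KO library 1 (0.00761).

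ND4, ND5 and COX1 also lay lower in KO without overlap, with log2 fold changes of -0.20, -0.27 and -0.20. With CYTB these were 4 of the 10 tested, against 10.3% of all tested genes, but they are cut from shared precursor transcripts and are not independent. ND1 had 0.05 ± 0.09 and an adjusted p of 0.859. The sum of the 13 overlapped widely, at 11821 to 13051 CPM in WT libraries and 11798 to 12917 CPM in KO. Within it ND2, with means of 2977 CPM in WT libraries and 3697 CPM in KO, went the other way from CYTB, ND4, ND5 and COX1. The sum can therefore hide changes of single genes. The 13 made up 1.14% to 1.31% of the counts, and the nuclear-encoded subunits made up 0.604% to 0.675%. Per kilobase of gene, the WT means ran from 4246 CPM for ND1 and 2868 CPM for ND2 through 1666 CPM for CYTB and 1565 CPM for ND4 to 421 CPM for COX1 and 314 CPM for ND5. COX2, COX3 and ATP6 had 15.7, 13.9 and 13.7 CPM per kilobase. The nuclear genome holds copies of mitochondrial DNA, which makes this order, the sum and its share of the counts uncertain.

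**Figure D4:**
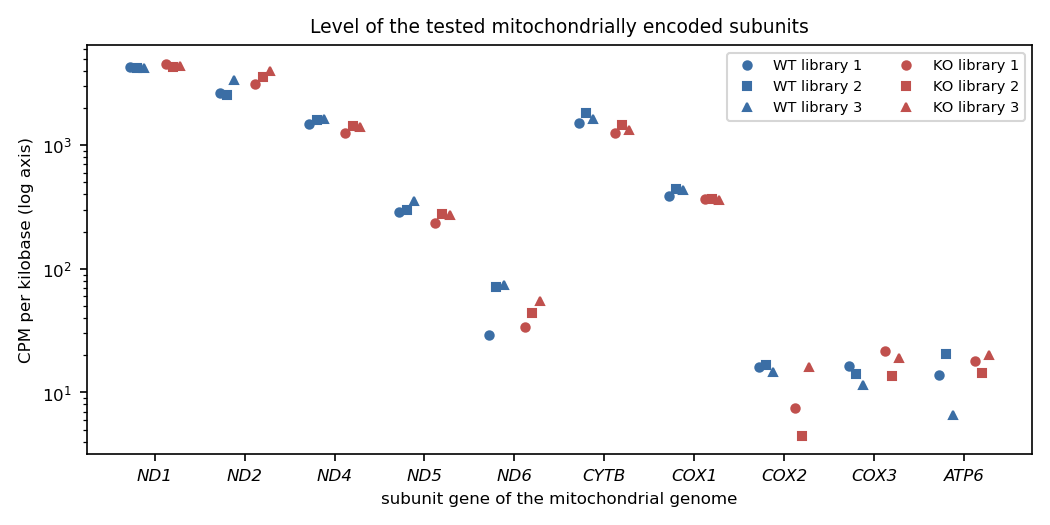
CPM per kilobase of gene (vertical log axis) of the 10 tested subunits encoded by mitochondrial DNA, with each WT and KO library as a point. CYTB lies lower in all KO libraries (1247 to 1449 against 1517 to 1838 CPM per kilobase), and the groups of ND2 overlap.

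Genes that build, control or feed the chain were taken from lists fixed by name, chosen with earlier results of these data known. None of the 30 tested assembly factors outside the naming rule passed, nor did any of 12 regulators of mitochondrial biogenesis, 20 electron and adenine nucleotide carriers or 16 genes of the citric acid cycle and pyruvate dehydrogenase. Over all tested genes 3.59% were called, so lists this short could hold no call without differing from that share. Their median log2 fold changes were -0.05, 0.07, 0.03 and 0.01. The median SEs of the 4 lists were 0.43, 0.44, 0.42 and 0.26, against 0.30 over all tested genes. The 95% interval lay within 2-fold for 7 of 30, 4 of 12, 9 of 20 and 11 of 16 genes, against 53.6% of all tested genes. The smallest p in each list belonged to Sdhaf2, an assembly factor of complex II (-1.04 ± 0.36 (SE), adjusted p = 0.114), Yy1, Coq3, an enzyme of ubiquinone synthesis (1.08 ± 0.55, adjusted p = 0.343), and Mdh2, mitochondrial malate dehydrogenase (0.41 ± 0.16, adjusted p = 0.199).

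Yy1, a transcription factor that controls mitochondrial genes among many others, had 85.1, 77.0 and 83.4 CPM in WT libraries and 136, 98.7 and 141 CPM in KO. Every KO library was above every WT library. The log2 fold change was 0.61 ± 0.18, with an adjusted p of 0.0518, and 5 of 13 alternatives called it. Nrf1, which encodes the factor that binds the motif above, had 86, 107 and 48 counts in WT libraries and 32, 61 and 22 in KO. The groups overlapped, and the log2 fold change of -0.88 ± 0.34 had an adjusted p of 0.184. Without KO library 2, and in no other alternative, Nrf1 was called, at -1.37 with an adjusted p of 0.0378. Tfam, which packages mitochondrial DNA, had 0.07 ± 0.24.

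Atpif1, the inhibitor protein of the ATP synthase, was not on these lists and was looked at after its values were seen. It had 99.4, 131 and 89.4 CPM in WT libraries and 65.7, 76.2 and 55.0 CPM in KO, without overlap. Atpif1 fell by 0.70 on the log2 scale (SE 0.20), with an adjusted p of 0.0443. Of 13 alternatives, 8 called it, with adjusted p from 0.0194 to 0.273, and it missed the threshold under limma-voom (0.0536) and without WT library 1, WT library 2, KO library 1 or KO library 3.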

How the data were processed

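The authors deposited raw, whole-number read counts for each gene symbol, with no normalization. Per the submitters' processing notes, builds mm10, mm39 and GRCm39 are listed with DESeq2 1.36.0, HTSeq 0.9.1, HISAT2 2.2.1, Bismark 0.23.0 and Trim Galore 0.6.6, in roles not given. The strand setting of the counting is not stated there, and reads of genes that overlap or run antisense cannot be told apart. Of the 35976 symbols, 20133 were at 0 in every library. The bisulfite table, with 2 columns of per-group levels that match no sample, was not used.

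Groups came from the labels. The filter filterByExpr with a minimum count of 10 and a minimum total of 15 left 9943 genes. KO was tested against WT by the quasi-likelihood test of edgeR 4.0.16 (R 4.3.3, limma 3.58.1) with TMM factors and Benjamini-Hochberg adjustment at 0.05 over all tested genes; adjusted p without a named tool are from it. The biological coefficient of variation was 22.6%. Standard errors and 95% intervals are those implied by the F statistic. The fit was also run on counts simulated from its own means and dispersions. Such counts meet its assumptions, so they cannot show how well the p-values hold here. CPM are normalised by the TMM effective library size, and intervals cover the spread between these libraries. Replicate pairs differed by more than sampling noise (chi-square per degree of freedom 4.05 to 7.13), so no libraries were merged; separately prepared technical repeats can exceed it too.

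Members and gene lists were chosen with earlier results of these data known. Named were the called members, the 3 smallest p and the 2 subunits of highest CPM in each complex, isoforms and their partners, the 4 Sdh genes, subunits with 3 or fewer counts in every library, the gene of smallest p in each companion list, and Tet3. Any further gene was named after its values were seen, and 1 gene's result is not reported here. Alternatives were RLE and upper quartile factors, no filter, a filter of 30 counts in 3 libraries, DESeq2 1.42.0, limma-voom, a replicate block and each library left out. Promoters came from RefSeq (GRCm38.p6), and a longer form of the NRF1 motif had been searched before the core was used.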

Additional observations from a re-analysis of the deposited data

How the results depend on the processing

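The count of members called was 1 in the main result, 1 with RLE factors and 2 with upper quartile factors. It was 4 with no filter, 3 with the stricter filter, 3 with DESeq2 and 2 with limma-voom. With 1 library left out it was 0 to 2. Members tested were 90 with no filter and 71 with the stricter filter, against 80 in the main result. Over all genes, the calls were 357 in the main result, 358 with RLE factors and 355 with upper quartile factors. They were 456 with no filter, 371 with the stricter filter, 403 with DESeq2 and 335 with limma-voom. The labels do not say whether equal replicate numbers mark paired libraries, and the main fit treated them as unpaired. Deviations from the group mean correlated at 0.0203, 0.0169 and -0.000243 in same-numbered libraries and at -0.0583 to 0.0389 in the others. With 3 libraries per group, these correlations cannot exclude a pairing. A replicate block gave 3 members called (Atp5a1, Ndufa1 and Uqcrc2), 501 of all genes, 1 regulator and 2 subunits encoded by mitochondrial DNA. With 1 library left out, 158 to 370 genes were called (82 to 182 higher, 76 to 188 lower), where 357 were called with all 6 libraries; the counts without WT library 1, WT library 2 and KO library 3 were 203, 226 and 158. Among regulators, 1 was called with no filter, 1 with the stricter filter, 1 with DESeq2 and 0 to 2 with 1 library left out, where none was called in the main result. Among subunits encoded by mitochondrial DNA, 1 was called with no filter, 2 with limma-voom and 0 to 1 with 1 library left out. The members' median log2 fold change ranged from -0.077 (without KO library 1) to 0.0056 (without KO library 2). Taken as the mean of log2 values instead of a sum, complex V had a log2 ratio of -0.23, against -0.12. With 1 library left out, the log2 ratios of the summed complexes ran from 0.03 to 0.12 for complex I, -0.26 to -0.05 for II, -0.22 to -0.07 for III, -0.13 to 0.05 for IV and -0.16 to -0.08 for V. The causes were not tested. The 12 untested members had too few counts for the filter, where 3 counts are 1.27 to 1.65 CPM; what part depth or the counting of reads that match several places had in this was not tested.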
